A study of Mus musculus with 5 samples.

Results

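The genes described here are 9 neuropeptide genes of the hypothalamus other than oxytocin: Trh, Sst, Cartpt, Cck, Nts, Gal, Tac1, Tac2 and Npy. They were taken by symbol from the 31054 features of the count matrices, and all 9 were present. Of 32292 nuclei deposited in 5 libraries, 1372 held at least 2 UMIs (unique molecular identifiers, each marking 1 captured transcript) of at least 1 of them. Their number was 254 in the library labelled saline, 171 in the one labelled VPA, 264 in the hM3 control and 418 and 265 in the 2 CNO libraries. By gene, the nuclei with at least 2 UMIs numbered 294 for Sst, 227 for Tac1, 221 for Cartpt, 174 for Gal, 165 for Trh, 141 for Cck, 112 for Nts, 103 for Tac2 and 37 for Npy.

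The study profiled single nuclei of the paraventricular hypothalamic nucleus (PVH) of male mice on a C57BL6 background. It asked what valproic acid (VPA) before birth does to gene expression there, and what stimulating oxytocin neurons in the newborn changes later. In the first experiment, OT-Cre; Rosa26tm9(CAG-tdTomato)Hze mice, whose Cre is driven by the oxytocin gene, were exposed to saline (10 mL/kg) or VPA (500 mg/kg) at embryonic day 12.5 and sampled at 5 weeks. In the second, OT-Cre; Rosa26dreaddm3 mice, which carry a Cre-dependent hM3 receptor that clozapine N-oxide (CNO) activates, had all been exposed to VPA at embryonic day 12.5. They received saline (the hM3 control) or CNO at postnatal day 2, had an AAV, whose cargo is not stated, injected in the PVH and supraoptic regions, and were sampled at 5 to 7 weeks. Each library pooled 2 to 4 mice of a condition, nuclei were sorted with a preference for larger ones, and each arm had 1 library except CNO, which had 2.

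Neuropeptides are cut from longer precursors, packed into dense-core vesicles and released alongside a fast transmitter, GABA or glutamate. In the PVH, parvocellular neurons marked by the transcription factor Sim1 are mostly glutamatergic. They make releasing hormones for the pituitary, whereas many GABAergic peptide neurons lie around the nucleus, in the anterior and lateral hypothalamus and the zona incerta. Thyrotropin-releasing hormone (Trh) drives the thyroid axis, and somatostatin (Sst) restrains growth hormone release. CART (Cartpt), cholecystokinin (Cck) and neuropeptide Y (Npy) bear on feeding. Neurotensin (Nts), galanin (Gal), substance P and neurokinin A (from Tac1) and neurokinin B (from Tac2) modulate arousal, stress and reproduction.

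All 9 are protein-coding genes, each in the files under 1 Ensembl identifier. In GENCODE vM21 (mm10) Trh lies at chr6:92242061-92244650 on the minus strand and Sst at chr16:23889573-23890958 on the minus strand. Cartpt lies at chr13:99898489-99901091 (minus), Cck at chr9:121489824-121495694 (minus) and Npy at chr6:49822710-49829507 (plus). Nts lies at chr10:102481756-102490486 (minus), Gal at chr19:3409915-3414544 (minus), Tac1 at chr6:7554879-7565834 (plus) and Tac2 at chr10:127724478-127731768 (plus). The genes are short, spanning 1386 bases (Sst) to 10956 bases (Tac1).

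Expression of several neuropeptide genes is known to depend on the cyclic AMP response element, TGACGTCA, first described in the Sst promoter. The 250 bases before the start site are shown for Sst, Cartpt, Cck and Npy, the 4 genes at least 1.5-fold higher in both CNO libraries than in the hM3 control. They are RefSeq sequences of build GRCm38.p6, written 5′ to 3′ on the gene's own strand. For Sst and Cartpt the RefSeq start lies inside the longer GENCODE gene. Capitals mark the half-site TGACG or its reverse complement CGTCA. Where both overlap, they form the full element.
Sst: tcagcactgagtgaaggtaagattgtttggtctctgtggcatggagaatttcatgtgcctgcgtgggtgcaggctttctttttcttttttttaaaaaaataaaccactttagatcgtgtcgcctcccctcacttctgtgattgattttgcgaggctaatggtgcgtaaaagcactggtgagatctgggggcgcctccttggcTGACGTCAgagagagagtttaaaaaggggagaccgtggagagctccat
Cartpt: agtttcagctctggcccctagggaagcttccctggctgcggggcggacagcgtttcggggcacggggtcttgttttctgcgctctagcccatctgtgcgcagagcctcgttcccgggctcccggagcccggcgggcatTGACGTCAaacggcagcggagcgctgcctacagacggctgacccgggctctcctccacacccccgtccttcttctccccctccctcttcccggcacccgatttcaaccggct
Cck: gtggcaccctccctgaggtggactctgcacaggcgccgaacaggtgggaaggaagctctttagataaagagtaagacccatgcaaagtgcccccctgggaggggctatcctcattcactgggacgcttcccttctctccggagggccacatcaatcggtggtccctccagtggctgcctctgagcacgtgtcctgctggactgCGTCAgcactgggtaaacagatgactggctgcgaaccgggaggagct
Npy: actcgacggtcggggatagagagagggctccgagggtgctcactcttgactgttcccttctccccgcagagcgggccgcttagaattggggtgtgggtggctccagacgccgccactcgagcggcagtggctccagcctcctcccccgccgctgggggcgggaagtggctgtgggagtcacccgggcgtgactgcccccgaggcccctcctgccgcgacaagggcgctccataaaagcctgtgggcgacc
The windows are chr16:23890845-23891094 (minus) for Sst, chr13:99900684-99900933 (minus) for Cartpt, chr9:121495695-121495944 (minus) for Cck and chr6:49822460-49822709 (plus) for Npy. Sst held the full element starting 48 bases before the start site and Cartpt 112 bases before it. Cck held 1 half-site, 47 bases before its start, and Npy none. Among all 9 genes, 2 held the full element and 6 a half-site. Tac1 held 2 half-sites, Trh and Nts 1 each, and Gal and Tac2 none in this window. Of 32851 promoter windows of the same length, 508 (1.55%) held the full element and 17.8% a half-site on either strand. A match is a stretch of letters, and binding was not measured.

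Nuclei under 1000 UMIs or above 5% mitochondrial UMIs were dropped. The others were clustered without the 9 genes, so that cell classes did not depend on them. Of the 1372 nuclei, 12 failed these limits, 105 were removed as likely doublets, 1030 fell in neuron-like clusters and 46 in glia-like clusters. A further 172 fell in clusters with neuron markers drawn almost wholly from 1 experiment, which were set aside, and 7 in other classes. Neuron-like nuclei numbered 3806 for saline, 7430 for VPA, 2801 for the hM3 control, and 2426 and 1995 for CNO replicates 1 and 2. Where 5 values follow each other, they keep this order. Their median depth was 13268.5, 6189.5, 16142, 17228 and 9563 UMIs, so the VPA library was the shallowest. Libraries shared 28 to 61 cell barcodes with another library. Not all of these neurons had PVH markers: sub-clusters with thalamic markers such as Tcf7l2 and Lef1 held 15.2%, 6.43%, 10.2%, 14.5% and 29.97% of them. Nuclei with at least 2 UMIs of a peptide were deep, with a median of 16772 UMIs against 9644.5 for the other neuron-like nuclei. Shares of nuclei with 2 UMIs therefore track depth, and levels are given as CPM, the UMIs of a gene scaled by all UMIs, summed over the nuclei of a library. Most of the 1030 neuron-like nuclei held 1 peptide: 965 had at least 2 UMIs of 1 gene, 62 of 2 genes and 3 of 3 genes.

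UMIs of these genes also appeared in glia-like nuclei, and this bounds what a summed level can show. In CPM, Sst was 6.71, 6.73, 3.35, 5.62 and 5.99 in neuron-like nuclei, and 5.99, 10.4, 5.55, 8.07 and 10.6 in glia-like nuclei. With nuclei under 3000 UMIs left out and the others thinned to that number, 1.79%, 2.06%, 0.719%, 1.91% and 1.16% of neuron-like nuclei held a Sst UMI, against 1.38%, 1.06%, 1.47%, 2.30% and 2.93% of glia-like nuclei. The glial shares rest on the 798, 283, 1293, 1002 and 410 glia-like nuclei that were deep enough. The share was higher in neurons in the saline and VPA libraries and lower in the other 3. Median depth was 1914 to 4140 UMIs in glia-like nuclei. For each of the 9 genes the intervals of neurons and glia overlapped in at least 1 library, as the plot of levels by library shows. Sst was higher in glia than in neurons beyond both intervals in the VPA, hM3 control and second CNO libraries. The reverse, neurons above glia beyond both intervals, was seen only in CNO replicate 1, for Cartpt (7.18 against 4.12 CPM), Nts (3.21 against 1.32) and Tac2 (4.07 against 1.48). Elsewhere a level summed over neurons was read as near this background. The astrocyte cluster c6, drawn 98.0% from 1 experiment and kept among the glia, gave 8, 27, 250, 100 and 1373 of the 1219, 2159, 1648, 1337 and 2275 glia-like nuclei, and its part in the glial levels was not tested. Where nuclei with 2 or more UMIs lay among the neuron sub-clusters is described next.

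**Figure D1:**
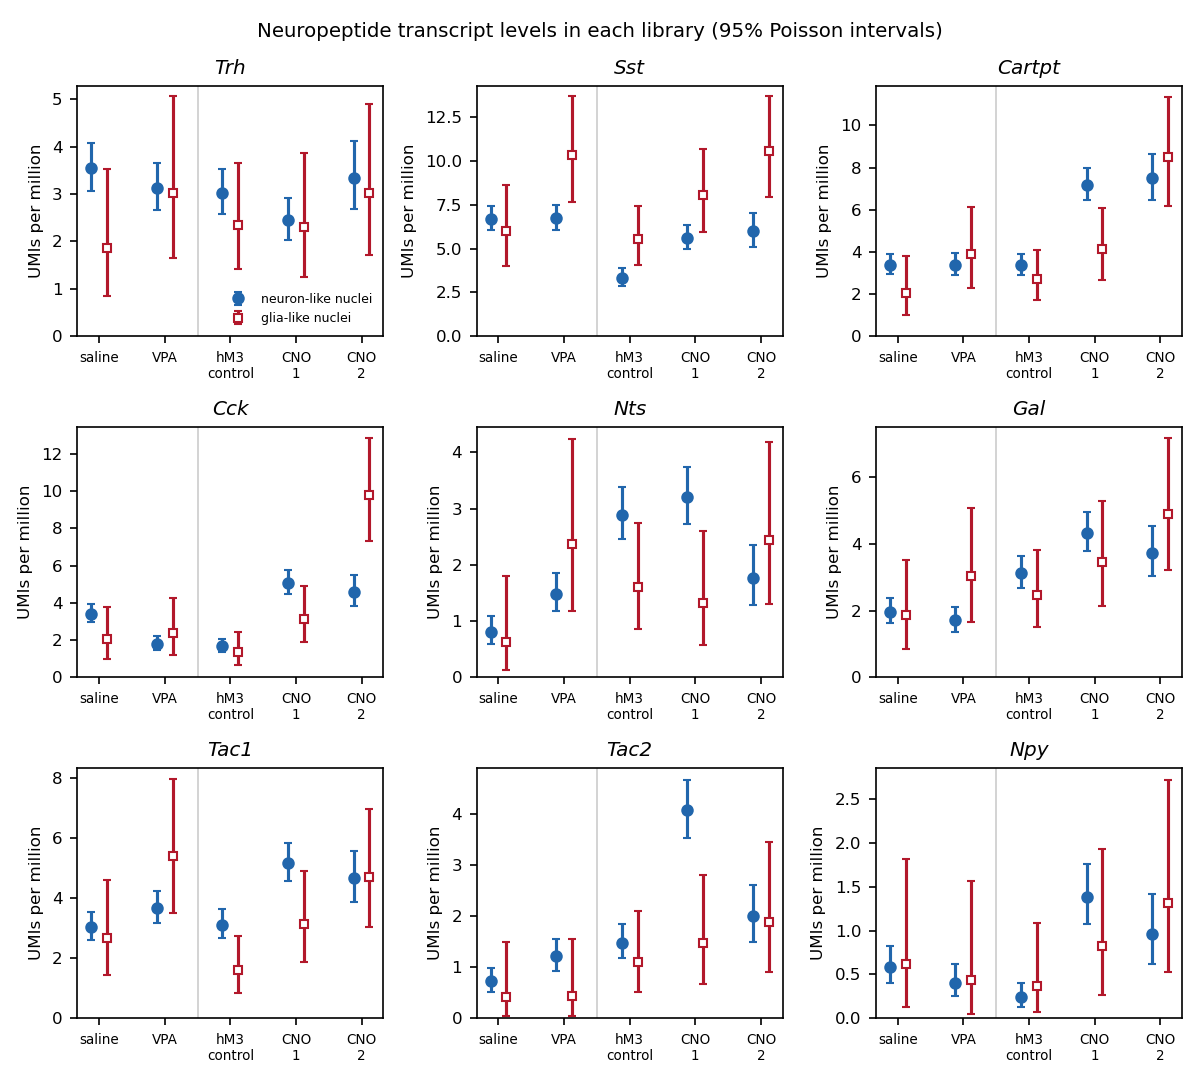
Level of each neuropeptide gene (y axis, CPM) in the 5 libraries (x axis) for neuron-like nuclei (filled circles) and glia-like nuclei (open squares). Bars are 95% Poisson intervals, which cover counting error only, and the grey line separates the experiments. Sst, Cartpt, Cck and Npy circles are higher in both CNO libraries than in the hM3 control, and glial squares lie above, at or below them depending on the gene and library.

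The neuron-like nuclei were split into 58 sub-clusters, named here s0 to s57 with leading genes in brackets. Of these, s0 (870 nuclei, led by Lhx8) and s7 (547 nuclei) had median depths of 17864 and 24604 UMIs against 9962.5 for all neuron-like nuclei. They expressed both Gad1 plus Gad2 (284 and 126 CPM) and Slc17a6 (39.8 and 77.5 CPM), and each, and no other sub-cluster, held nuclei of all 9 peptides. Their part in the results was checked by leaving them out. They made up 5.33%, 2.48%, 9.03%, 12.3% and 24.01% of neuron-like nuclei, the largest share in CNO replicate 2. Without them Cartpt was 3.28 CPM in the hM3 control and 7.67 and 10.7 in the CNO libraries, and Cck was 1.37 against 4.85 and 4.54. The CNO differences in Cartpt, Cck and Npy were as large without them. The CNO log2 ratios of Sst were 0.76 and 0.72 without them, beside 0.75 and 0.84 with them. Those of Gal (0.18 and -0.23) and Tac2 (0.88 and -0.35) were lower than with them.

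Trh nuclei lay mostly among Sim1 neurons. Sim1-rich sub-clusters, with Sim1 at 2 or more times its mean over sub-clusters, held 103 of the 129 neuron-like Trh nuclei (79.8%), 39, 16, 21, 15 and 12 by library. The leading sub-clusters were s9 (Sim2, Bdnf) with 30 Trh nuclei, s47 (Ucn3, the urocortin 3 gene) with 23, s42 (Egfr, Agtr1a) with 19 and s57 (Pld1, Lmo3) with 16. In s57, a group of 27 nuclei, Trh reached 152 CPM. Among sub-clusters with at least 20 nuclei from the first experiment, a limit that left out s57, the 3 with the highest Trh level there (s47, s42 and s9) were then read in the second. Trh there was 26.6 CPM in the control and 26.2 and 76.7 in the CNO libraries. These levels were 13.7-fold (95% counting interval 9.88 to 19.0), 13.6-fold (8.56 to 20.9) and 43.5-fold (27.8 to 67.7) those in the other neurons. Trh was therefore enriched in the same sub-clusters in 3 of 3 libraries not used to choose them. Read in the same way, the folds of Sst (11.6, 9.64 and 13.7), Cck, Gal, Tac1 and Tac2 had lower bounds above 1 in all 3 libraries. Those of Cartpt in CNO replicate 2 (1.90, 0.90 to 3.58), Nts in CNO replicate 2 (2.64, 0.31 to 10.1) and Npy in the control (4.45, 0.48 to 20.4) did not. Of the 3 Sst sub-clusters, s36 and s24 held no Sst UMI in CNO replicate 2, with 3 and 16 nuclei there. Sim1 itself was 376 CPM in Trh nuclei and 93.5 in the other neuron-like nuclei, higher in 5 of 5 libraries.

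Summed over neurons, Trh was 3.54, 3.13, 3.02, 2.45 and 3.34 CPM, and no arm was past 1.5-fold of its control. The VPA log2 ratio was -0.18 (95% interval -0.48 to 0.13), and the CNO ratios were -0.30 (-0.65 to 0.04) and 0.15 (-0.25 to 0.53). In the order of levels, neighbouring libraries had overlapping intervals. Within Sim1-rich neurons Trh was 11.3, 7.76, 9.01, 12.0 and 13.4 CPM. There the VPA ratio was -0.54 (-0.90 to -0.18), clear of 0 by counting error and short of 1.5-fold, and the CNO ratios were 0.42 and 0.57. In nuclei of GABAergic type, where Trh was low, the VPA ratio was 1.07 (0.28 to 1.91), from 0.80 CPM (20 UMIs) to 1.68 CPM (45 UMIs). In nuclei of glutamatergic type it was 0.00 (-0.57 to 0.55), and in GABAergic sub-clusters 0.53 (-0.28 to 1.38). Trh thus had no single direction between 1 saline and 1 VPA library.

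Most Sst nuclei fell into 2 kinds. The first was s39, a Sim1-rich sub-cluster led by Rxfp2 and including Ghr, the growth hormone receptor gene, and Stat5a, which carries its signal. It held 74 of the 210 neuron-like Sst nuclei. Sst in s39 was 210, 105.7, 105, 231 and 170 CPM, against 5.55 to 10.6 CPM in glia. It rests on 61, 118, 25, 7 and 11 nuclei. The other kind was GABAergic. Sub-clusters with Gad1 plus Gad2 above 2 times Slc17a6 are called GABAergic, and they held 105 Sst nuclei, led by s0 (22 nuclei), s44 (Pvalb, 14), s36 (Moxd1, Lhx6, 13) and s24 (Lhx1, 11). The remaining Sst nuclei were 9 in thalamus-type sub-clusters, 9 in other sub-clusters and those in Sim1-rich sub-clusters other than s39. Ghr ranked first among genes by the smallest excess over libraries in Sst nuclei, at 1276 CPM against 275 in other neurons, with log2 ratios from 1.23 to 2.93.

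The transmitter type of a nucleus was set by whichever of Slc17a6 (vesicular glutamate transporter) or Gad1 plus Gad2 (GABA synthesis) had more UMIs. Nuclei with a tie had no set type. Over all nuclei of s39, Slc17a6 was 87.7 CPM and Gad1 plus Gad2 were 68.8 CPM. Of its 74 Sst nuclei, 35 had a set type, and 8 of these 35 were GABAergic (22.9%, exact binomial interval 10.4 to 40.1). Outside s39 the count was 105 of 128 (82.0%, 74.3 to 88.3). The share of Sst nuclei in s39 differed between libraries. s39 held 35, 22, 8, 4 and 5 Sst nuclei by library, and nuclei outside it numbered 31, 24, 16, 44 and 21. s39 was thus the larger share in the saline library and a small one in both CNO libraries.

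Between saline and VPA, the Sst ratio was -0.50 (-0.83 to -0.17) in Sim1-rich neurons, with s39 at 210 and 105.7 CPM, and 1.37 (0.33 to 2.42) in thalamus-type neurons, from 17 and 18 UMIs; the difference between the sets was not tested. Summed over neurons, Sst was level between saline and VPA (log2 ratio 0.00, -0.21 to 0.22) and higher in both CNO libraries than in the hM3 control, by 0.75 (0.47 to 1.02) and 0.84 (0.52 to 1.15). The hM3 control was the low library, its interval of 2.88 to 3.87 CPM below those of the other 4. Glia-like nuclei differed in the same direction, by 0.54 and 0.93. By transmitter type the CNO libraries read differently, and this difference was not tested. The sub-clusters holding GABAergic Sst nuclei differed between libraries. The 14 Sst nuclei of s44 were 0, 0, 0, 11 and 3 by library, and s44 itself had 6, 7, 17, 100 and 38 nuclei. In nuclei of GABAergic type Sst was 6.48, 6.48, 3.13, 6.796 and 7.05 CPM, so both CNO libraries were above the control. In nuclei of glutamatergic type it was 5.69, 4.30, 3.89, 2.50 and 3.81 CPM, with log2 ratios of -0.64 (-1.27 to -0.02) and -0.03 (-0.73 to 0.64), so both values were below the control and the interval of CNO replicate 1 alone left out 0. Sst nuclei of a set type in s39 were mostly glutamatergic. There both CNO libraries had a higher Sst level than the control, from 7 and 11 nuclei. The plot of levels by transmitter type shows both. The ratio of CNO replicate 1 fell short of 1.5-fold with the 1-experiment clusters kept (0.56) and over all nuclei of the library (0.53).

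**Figure D2:**
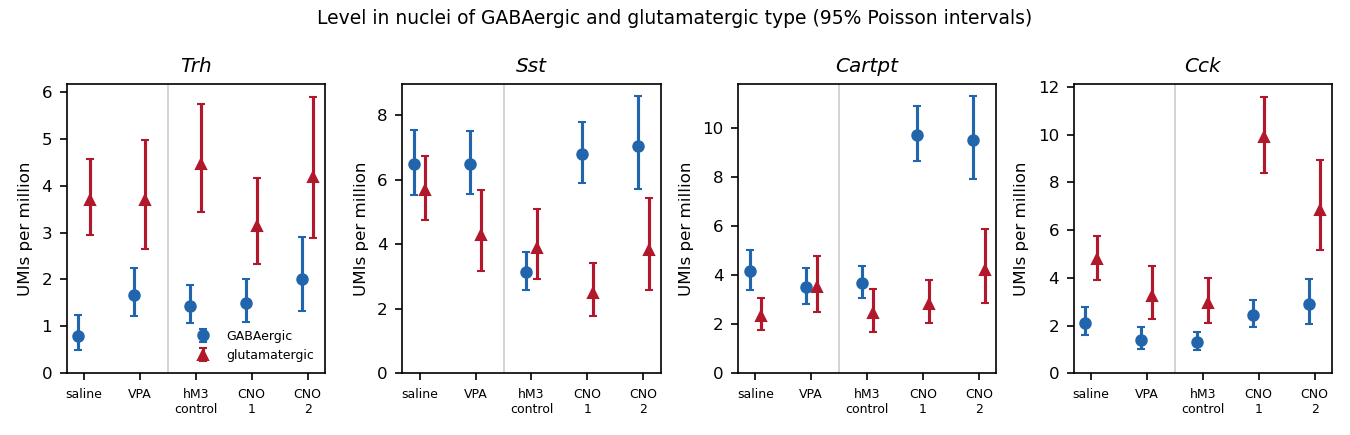
Level of Trh, Sst, Cartpt and Cck (y axis, CPM) in neuron-like nuclei of GABAergic (blue circles) and glutamatergic type (red triangles) by library (x axis). Bars are 95% Poisson intervals. Sst and Cartpt circles are higher in both CNO libraries than in the hM3 control, and Cck triangles are higher as well.

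Cartpt nuclei were found among melanin-concentrating hormone neurons and in many other sub-clusters called GABAergic by their Gad1 plus Gad2 level. This name rests on RNA, and the transmitter released was not measured. The sub-cluster s55, led by Pmch (the melanin-concentrating hormone gene) and Tacr3 (the neurokinin B receptor gene), had 44 nuclei, and 30 of them held at least 2 UMIs of Cartpt. Of all genes, Pmch had the highest value of the smallest log2 excess over libraries in Cartpt nuclei, at 221 CPM against 4.09 in the other neurons. Sim1-rich sub-clusters held 42 of the 171 Cartpt nuclei, 16 of them in s9. A further 119 lay in GABAergic sub-clusters, with 26 in s0, 16 in s5 (Pax6) and 13 in s10 (Greb1, Esr2), besides s55.

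Cartpt was 3.40, 3.39, 3.39, 7.18 and 7.49 CPM in neuron-like nuclei. The first 3 libraries did not differ beyond their intervals, and neither did the 2 CNO libraries, whose lowest bound (6.46) lay above the highest of the others (3.93). The CNO log2 ratios were 1.08 (0.82 to 1.35) and 1.14 (0.85 to 1.44), and the VPA ratio was -0.01. In nuclei of GABAergic type the level was 3.68 CPM in the hM3 control against 9.70 and 9.49 with CNO. In nuclei of glutamatergic type it was 2.45 against 2.82 and 4.19, so only the second CNO library was past 1.5-fold. In Sim1-rich neurons it was 4.33 against 8.97 and 7.92, both past 1.5-fold. The log2 ratios there were 1.05 (0.44 to 1.66) and 0.87 (0.18 to 1.54). Glial Cartpt was 2.71 against 4.12 and 8.48 CPM. Pmch was 4.58 CPM in the hM3 control and 9.01 and 27.9 in the CNO libraries, with 7, 5 and 21 nuclei in s55. The part of Pmch neurons in the Cartpt difference was not tested.

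Cck was a gene of thalamus-type neurons. These sub-clusters held 84 of its 117 neuron-like nuclei, with 36 in s1 (Adgrg6, Synpo2), 28 in s7 and 16 in s33 (Prkcd, Lef1). Sim1-rich sub-clusters held none. Tcf7l2, a transcription factor of the thalamus, was 536 CPM in Cck nuclei against 136 elsewhere, higher in 4 of 4 libraries with at least 5 Cck nuclei. The remaining nuclei were mainly GABAergic, with 12 in s10.

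Cck was 3.42, 1.80, 1.70, 5.08 and 4.61 CPM. The VPA library was below the saline library by -0.93 (-1.30 to -0.56) on the log2 scale, and both CNO libraries were above the control by 1.58 (1.23 to 1.93) and 1.44 (1.03 to 1.84). VPA and the hM3 control were the low libraries and did not differ beyond their intervals. The share of thalamus-type nuclei, given above, was lower in VPA than in saline and higher in both CNO libraries than in the control. It did not follow Cck throughout: it was 14.5% in CNO replicate 1 and 29.97% in replicate 2, where Cck was 5.08 and 4.61 CPM. Its part in the Cck differences was not tested. The make-up of the thalamus-type set also differed: s33 had 46, 2, 11, 89 and 121 nuclei, and its 16 Cck nuclei were 1, 0, 0, 15 and 0. Inside thalamus-type sub-clusters Cck was 9.89, 8.25, 6.35, 16.4 and 8.87 CPM, which made the VPA ratio -0.26 (-0.82 to 0.27) and the CNO ratios 1.37 and 0.48. Outside them it was 1.70, 1.13, 0.846, 1.90 and 1.58 CPM, with a VPA ratio of -0.59 (-1.12 to -0.06) and CNO ratios of 1.17 and 0.90, all past 1.5-fold. With each sub-cluster weighted equally the VPA difference was no longer past 1.5-fold, at -0.36, and the CNO ratios were 0.89 and 0.96. Glial Cck was 2.06, 2.37, 1.36, 3.13 and 9.80 CPM, and CNO replicate 2 was the only library whose glia exceeded its neurons beyond both intervals.

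Npy was the rarest of the 9, with 30 neuron-like nuclei, and all 30 had a set type. They were 9, 1, 1, 14 and 5 by library. In total 26 lay in GABAergic sub-clusters, with 5 each in s0, s43, s44 and s49 (Gata3). Npy was 0.584, 0.406, 0.238, 1.38 and 0.960 CPM, from 33, 21, 13, 69 and 25 UMIs. Both CNO libraries were above the control, by 2.54 (1.67 to 3.52) and 2.01 (0.99 to 3.10), and the VPA ratio was -0.52 (-1.39 to 0.31). The control value rests on 13 UMIs, 1 nucleus having 2 or more. With each sub-cluster weighted equally the CNO ratios were 0.86 and 1.04. Glial Npy was 0.370 CPM in the control and 0.824 and 1.32 with CNO, from 3, 5 and 7 UMIs. The glial ratios were 1.15 (-1.21 to 3.84) and 1.83 (-0.30 to 4.42). The 5 Npy nuclei of s49 were all from the saline library and the 5 of s43 all from CNO replicate 1, so the sub-clusters holding Npy differed between libraries.

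Nts, Gal and Tac2 met in s8, a GABAergic sub-cluster of 546 nuclei that expressed Esr1 (estrogen receptor alpha) and Lhx8. It held 40 of 85 Nts nuclei, 31 of 117 Gal nuclei and 23 of 79 Tac2 nuclei. Esr1 was 140 CPM in Nts nuclei, 146 in Gal nuclei and 176 in Tac2 nuclei, each against about 53 in other neurons (53.4, 53.1 and 53.2). It was higher in 4 of 4 libraries for Nts and for Tac2, and in 3 of 5 for Gal. s8 held 75, 112, 215, 136 and 8 nuclei, so CNO replicate 2 nearly lacked it.

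Nts was 0.815, 1.49, 2.89, 3.21 and 1.77 CPM, and the 2 CNO libraries disagreed, at 0.15 (-0.18 to 0.48) and -0.71 (-1.22 to -0.23) against the control. With each sub-cluster weighted equally the ratios were -0.04 and 0.76, so the second turned positive. Inside s8 Nts was 14.1, 22.6, 21.7, 28.4 and 0 CPM, the last from only 8 nuclei. The VPA library was above the saline library by 0.87 (0.33 to 1.43). Glial Nts differed by 1.94 (0.02 to 4.42), from 3 and 11 UMIs. After the glial UMIs per nucleus were subtracted, the VPA ratio was 0.22, under 1.5-fold.

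Gal had a second site of its own, s26 (Atp8b1, Acss3, Oprk1), with 33 nuclei and 45.2, 24.4, 46.7, 60.9 and 81.5 CPM. Summed over neurons it was 1.97, 1.70, 3.13, 4.33 and 3.73 CPM. No arm was past 1.5-fold of its control, with a VPA ratio of -0.21 (-0.63 to 0.21) and CNO ratios of 0.47 and 0.25. With glial UMIs per nucleus subtracted the VPA ratio was -0.93, past 1.5-fold. The CNO ratios were 0.18 and -0.23 without s0 and s7, and 0.64 and 1.21, both past 1.5-fold, with each sub-cluster weighted equally. Gal nuclei carried more Th (tyrosine hydroxylase), at 26.3 CPM against 5.17, and more Penk (enkephalin), at 19.5 against 4.85. Both were higher in 5 of 5 libraries.

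Tac2 was 0.726, 1.22, 1.48, 4.07 and 2.00 CPM. CNO replicate 1 was the high library, at 1.46 (1.08 to 1.85) against the control, while CNO replicate 2 was at 0.43 (-0.10 to 0.95). The VPA ratio was 0.75 (0.16 to 1.35), from 41 and 63 UMIs. Besides s8, Tac2 nuclei lay in s38 (Dock5, Gpr149, Esr1; 11 nuclei) and s0 (25 nuclei, 17 of them from CNO replicate 1). Without s0 and s7, CNO replicate 1 was at 0.88 and CNO replicate 2 at -0.35. Both CNO libraries were past 1.5-fold without thalamus-type sub-clusters (1.52 and 0.85) and with each sub-cluster weighted equally (1.28 and 0.68). With each sub-cluster weighted equally the VPA ratio was 0.38.

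Tac1 was spread over neurons of several kinds. Of its 160 nuclei, 25 were in s15 (Samd3), 19 in the mixed s0, 17 in s35 (Ebf1, Ebf2, Sim1-rich), 14 in s9 and 14 in the dopaminergic sub-cluster s46 (Th, Ddc, Slc18a2). By the smallest excess over libraries Ebf2 and Ebf1 ranked first in Tac1 nuclei, Ebf2 at 114 CPM against 20.03. Tac1 was 3.03, 3.68, 3.11, 5.16 and 4.65 CPM. The VPA ratio was 0.28 (-0.03 to 0.59), and -0.20 with glial UMIs per nucleus subtracted. Glial Tac1 differed by 1.01 (-0.01 to 2.10) between VPA and saline. Both CNO libraries were above the control, by 0.73 (0.44 to 1.02) and 0.58 (0.23 to 0.92). Glial Tac1 was 1.60 CPM in the control and 3.13 and 4.71 with CNO, ratios of 0.96 and 1.55. The second neuronal ratio lay just under 1.5-fold, and both passed it in 6 of 10 other settings of the processing.

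**Figure D3:**
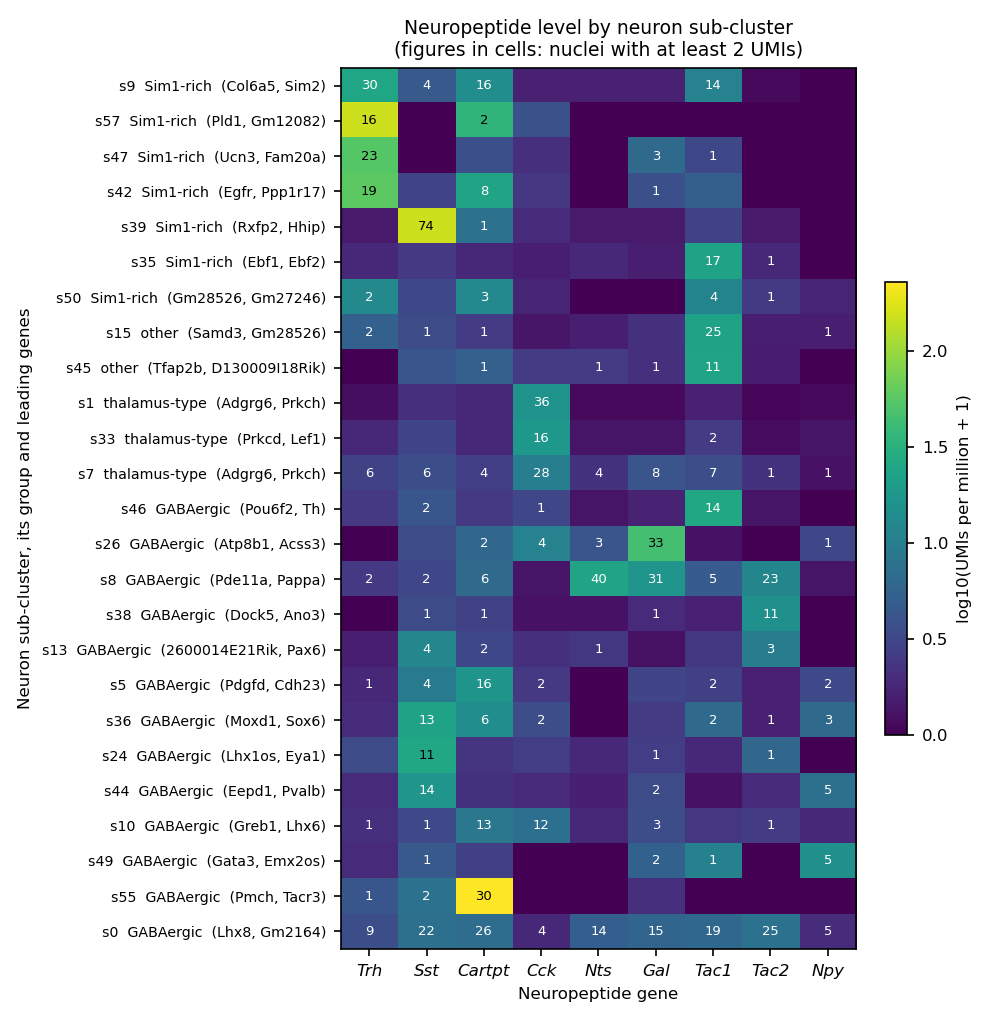
Level of each gene (colour, log10 of CPM plus 1) in 25 of the 58 neuron sub-clusters, each labelled with its group and 2 leading genes, and the number of nuclei with at least 2 UMIs (figures in the cells). Sst peaks in s39 (74 nuclei), Cartpt in s55 (30), Trh in s57, s47 and s42, and s0 holds nuclei of all 9 genes.

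By 1.5-fold, 3 of 9 genes differed between VPA and saline: Cck was lower, and Nts and Tac2 were higher. Of all 19226 genes tested, 12.6% were past 1.5-fold (7.84% higher, 4.72% lower). Of the 6784 genes with summed UMIs in the range of the 9, 17.9% were past it (11.7% higher, 6.15% lower). In both CNO libraries 4 of 9 were higher than in the control (Sst, Cartpt, Cck and Npy) and none was lower. Of 19369 genes, 7.71% were past 1.5-fold in both (6.89% higher, 0.821% lower). Of the 4641 in the UMI range of the 9, 10.3% were past it (9.57% higher, 0.69% lower). The median log2 ratio of the 9 genes was -0.01 for VPA and 0.75 and 0.58 for CNO, beside 0.08, 0.09 and 0.09 over all genes. The 9 genes were chosen with earlier results of these data known, so these counts and medians are a description only. No test was possible for VPA, with 1 library on each side, and for CNO an exact permutation of 1 against 2 libraries cannot give a p under 0.333. A level summed over all neurons holds both the number of nuclei of a type and the UMIs in each. The 2 CNO libraries are compared with the same control library, so a low control value enters both ratios.

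**Figure D4:**
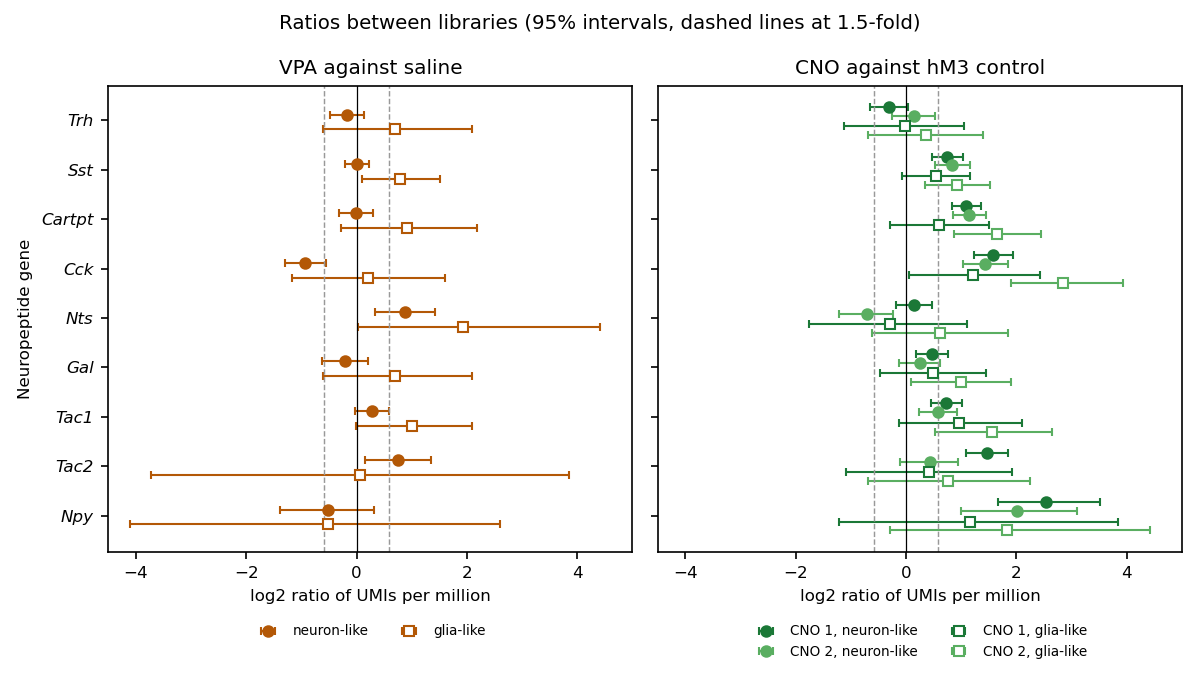
Log2 ratio of CPM (x axis) for each gene (y axis), VPA against saline on the left and each CNO library against the hM3 control on the right. Filled circles are neuron-like and open squares glia-like nuclei, bars are 95% counting intervals and dashed lines mark 1.5-fold. Sst, Cartpt, Cck and Npy are right of the line in both CNO libraries, with glia to the right of 0 too.

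The transmitter type of the peptide nuclei was compared within each library with that of the other neuron-like nuclei. Of all neuron-like nuclei with a set type, 58.2%, 73.9%, 73.2%, 68.9% and 61.2% were GABAergic. Pooled over libraries, Trh nuclei had the lowest GABAergic share of the 9, 20 of 72 (27.8%), and 57 further Trh nuclei had no set type. By library their GABAergic share was 10.0%, 33.3%, 36.8%, 37.5% and 27.3%, from 20, 6, 19, 16 and 11 nuclei of a set type. It was below the other neurons in 5 of 5 libraries, a mean of -38.3 ± 6.59 points (SD, n = 5). In VPA its exact binomial interval (4.33 to 77.7) included the 74.0% of the other neurons. Tac1 nuclei were also below in 5 of 5 libraries, at 37.0%, 25%, 66.7%, 41.5% and 60.9%, a mean of -21.1 ± 19.2 points (SD, n = 5). The margin in CNO replicate 2 was 0.338 points. Cck nuclei were below in each of the 4 libraries with at least 5 nuclei of a set type, at 28.0% for saline, 70.6% for the control and 25.5% and 42.9% for CNO, a mean of -23.98 ± 17.8 points (SD, n = 4).

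Gal nuclei were the opposite. Their GABAergic share was 85.0%, 100%, 92.3%, 90.7% and 76.9%, above the other neurons in 5 of 5 libraries, by 22.1 ± 4.65 points (SD, n = 5). Tac2 nuclei were above in 4 of 4 libraries, by 26.1 ± 2.89 points (SD, n = 4), with 72 of 74 nuclei GABAergic in all. The libraries read had 8 (VPA), 16 (control), 40 and 6 (CNO) Tac2 nuclei of a set type. Nts (72 of 78 nuclei) and Npy (28 of 30) were GABAergic in most nuclei, though each was above the other neurons in 2 of the 3 libraries that could be read. Sst (69.3% of 163) and Cartpt (78.9% of 152) were mixed, above in 3 and 4 of 5 libraries. The exact 2-sided permutation p, from sign changes over libraries, was 0.0625 for Trh, Tac1 and Gal, the smallest that 5 libraries allow. It was 0.188 after Benjamini-Hochberg adjustment over the 9 genes, so none passed 0.05. Each library pools mice, so these p-values measure only the spread between these 5 libraries. Among 3634 genes with 30 to 210 such nuclei, 8.09% were above in every readable library and 13.5% below. Of the peptides 2 of 9 were above (Gal, Tac2) and 3 of 9 below (Trh, Cck, Tac1).

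**Figure D5:**
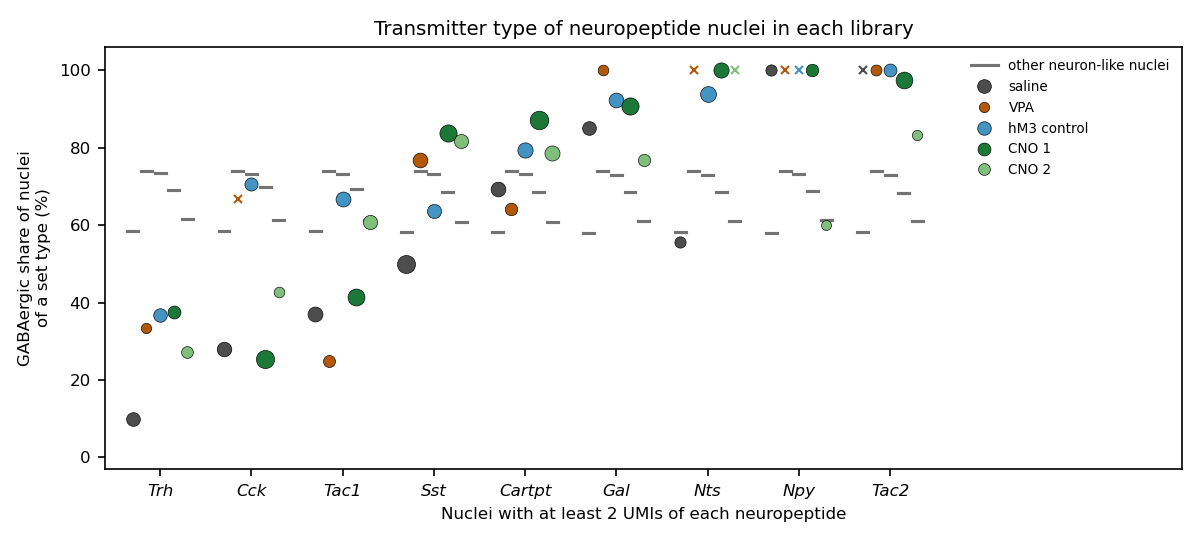
GABAergic share (y axis, percent of nuclei with a set type) of nuclei with at least 2 UMIs of each gene, by library (colours). Circle size grows with the number of nuclei, crosses mark libraries with fewer than 5, and grey bars give the other neuron-like nuclei of the same library. Trh, Cck and Tac1 circles lie below their bars, and Gal and Tac2 circles above.

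Nuclei with 2 peptides were few. Trh and Cartpt shared 11 nuclei, 8.53% of Trh nuclei and 6.43% of Cartpt nuclei, while 0.926% of all neuron-like nuclei were Cartpt nuclei. Trh and Tac1 shared 6, and Nts and Tac2, Cartpt and Cck, and Gal and Tac1 shared 5 each. Trh shared none with Cck, Nts, Tac2 or Npy. These counts rest on deep nuclei and on UMIs that also occur in glia, and no test was made of them.

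Receptors of these peptides were read from a fixed list. Of 22 receptor genes 18 could be compared in each contrast (at least 20 UMIs). For VPA 4 of 18 were past 1.5-fold, beside 12.6% of all genes and 17.9% in the UMI range of the 9 peptides. Ntsr2, a neurotensin receptor, was higher (1.30 against 0.584 CPM), with 169 and 215 CPM in glia-like nuclei of the same libraries, and Trhr2, Sstr3 and Galr2 were lower. For CNO 2 of 18 were past it in both libraries, beside 7.71% of all genes. Trhr2 was higher and Sstr5 lower, from 11 to 18 and 6 to 24 UMIs per library. The receptor genes with more UMIs were not past 1.5-fold for VPA or in both CNO libraries. Trhr, the TRH receptor of the brain and pituitary, was 13.3, 18.1, 15.8, 12.9 and 12.1 CPM. Sstr2 was 5.81, 6.25, 4.49, 4.68 and 6.38, and Npy1r was 10.6, 12.1, 8.92, 14.0 and 10.7. Galr1 was 7.83, 9.27, 7.87, 8.75 and 5.99 CPM, and Ntsr1 was 5.79, 4.55, 5.27, 6.54 and 4.61. Single libraries stood apart among them, as Npy1r in CNO replicate 1, and Trhr was higher in the VPA library by 0.44 (0.30 to 0.58). Tacr1, the substance P receptor, was 29.1, 26.5, 30.1, 29.9 and 18.9 CPM, with CNO replicate 2 low. Tacr3 was 8.84, 9.56, 10.0, 7.41 and 15.3, with CNO replicate 2 high, and Cckbr was 2.85, 3.31, 2.67, 4.15 and 2.07.

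Among genes that cut and pack peptides none differed by this measure. None of 13 genes, among them the convertases Pcsk1 and Pcsk2, the carboxypeptidase Cpe, the amidating enzyme Pam and the granins, was past 1.5-fold in the VPA library (12.6% of all genes) or in both CNO libraries (7.71%). Pcsk2 came nearest in CNO, at 0.45 and 0.47. Of 20 other peptide genes that could be compared for VPA, 5 were past 1.5-fold, beside 12.6% of all genes: Pomc, Hcrt, Vip and Npff were higher and Ghrh lower. For CNO 4 of 21 were higher, beside 6.89% of all genes: Pomc, Hcrt (1.15 CPM in the control against 12.8 and 20.01), Pmch and Npvf. Hcrt (orexin) and Pmch are markers of the lateral hypothalamus, and both were higher than the control in the CNO libraries, as were Cartpt, Cck, Sst and Npy. Their part in those differences was not tested.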

How the data were processed

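Single nuclei of 5 libraries were counted with Cell Ranger 7.0.1 on build mm10, per the submitters' processing notes, and the deposited values are raw UMI counts per gene and barcode, per the file headers. Intron and strand settings are not given in the sources used here. Reads of genes that overlap others cannot be told apart without strand. The custom feature Cre was left out of clustering, and the 9 peptide genes were too.

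Nuclei with under 1000 UMIs or over 5% mitochondrial UMIs were removed, and so were the highest doublet scores of each library (0.8% per 1000 nuclei). The rest were clustered with scanpy 1.11.5 (2000 genes, 30 components, 20 neighbours, Leiden resolution 1, and 2 for neurons). Neuron-like clusters with at least 95% of nuclei from 1 experiment were set aside, and a lymphocyte list was added, both after the clusters were seen. Class names come from marker lists and can differ from the study's own.

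UMIs were summed over the neuron-like nuclei of each library and scaled to CPM, with exact Poisson intervals and conditional binomial intervals of ratios (95%), which cover counting error only. Summed neuron UMIs were 26036353 to 56465482 per library. A gene needed 20 UMIs to be compared and was called past 1.5-fold. The 2 arms of an experiment were prepared as separate libraries, and genotype, virus, age and preparation changed between experiments, so no value was compared between experiments by a test. Shares of GABAergic nuclei were compared by an exact sign-change permutation over libraries. Genes named beside a peptide are the 5 with the highest smallest log2 ratio (pseudocount 10 CPM) over libraries with at least 5 nuclei, fixed lists of receptors, processing genes and other peptides, and partner genes. Leading genes of sub-clusters identify them only. The 9 genes and the lists were chosen with earlier results of these data known. On simulated data, 100% (VPA, 19226 genes) and 99% (CNO, 19369 genes) of 200 genes changed 3-fold were recovered, and 4.12% and 1.80% of unchanged genes were called. The simulated libraries shared a single profile and differed by counting error only. These rates therefore leave out spread between libraries and changes smaller than 3-fold. edgeR 4.0.16 gave the TMM scaling used as an alternative. Coordinates are from GENCODE vM21 and promoters from RefSeq GRCm38.p6.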

Additional observations from a re-analysis of the deposited data

Results flagged for a closer look

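Sst in the CNO libraries read differently by transmitter type. In nuclei of GABAergic type both were above the hM3 control, with log2 ratios of 1.12 (0.78 to 1.46) and 1.17 (0.76 to 1.58) and a mean of 1.14. The sub-clusters holding such Sst nuclei differed between libraries: those in s44 numbered 0 in the control and 11 and 3 with CNO. In nuclei of glutamatergic type both point values were below 0, at -0.64 (-1.27 to -0.02) and -0.03 (-0.73 to 0.64), and the second interval included 0. Sim1-rich neurons, which include s39 with its mostly glutamatergic Sst nuclei of a set type, were at 0.40 and 0.01. The difference was not tested.

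Trh point values had the same signs, 0.06 (-0.54 to 0.66) and 0.48 (-0.25 to 1.17), with a mean of 0.27, in GABAergic-type nuclei, and -0.51 (-1.08 to 0.06) and -0.09 (-0.75 to 0.54) in glutamatergic-type nuclei. All 4 intervals included 0. In Sim1-rich neurons, which held most Trh nuclei, both CNO libraries were above the control (0.42 and 0.57). The difference between types was not tested.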

How the results depend on the processing

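The count of peptides past 1.5-fold was 3 for VPA and 4 for CNO. It was 0 for VPA and 0 for CNO with a pseudocount of 10 CPM, where 0.338% and 0.165% of all genes passed, and 7 for CNO with each sub-cluster weighted equally. With either CNO library left out it was 5 to 6. In 10 alternatives Cck, Nts and Tac2 each passed in 8 for VPA, and Npy in 6. For CNO, Cartpt, Cck and Npy passed in 9, Sst in 7 and Tac1 in 6. Of 90 VPA ratios 80 kept their sign, and of 108 CNO ratios 101 did.

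The count of peptides with a higher GABAergic share in every library was 2. It was 4 from 1 UMI, 4 with doublets kept and 0 from 5 UMIs, and 2 to 3 with 1 library left out. The count with a lower share was 3, and 0 from 5 UMIs, a limit that left 1 peptide with enough nuclei, and 3 to 3 with 1 library left out. The Sst difference turned to -16.8 points from 5 UMIs. The other 110 of 111 such differences kept their sign. For shares of nuclei with 2 UMIs, VPA against saline turned positive after thinning to 3000 UMIs for Trh, Cck and Nts (log2 0.0871 each), Tac1 (0.31) and Cartpt (0.50), and to 2000 UMIs for Cartpt (0.62), each from at most 8 nuclei. The transmitter comparison thinned to 3000 UMIs was not run because no peptide kept 3 libraries of 5 nuclei. The causes of these changes were not tested. Keeping the 1-experiment clusters, leaving out s0 and s7, leaving out thalamus-type sub-clusters, and leaving out the saline, VPA or hM3 library were chosen after seeing the data. No paired analysis was possible because replicate numbers occur in the labels of the CNO libraries only.

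Depth limits these values. Most peptide nuclei held 2 to 4 UMIs, the VPA library was shallowest, and glia-like nuclei held similar levels.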
